A study of Mus musculus with 4 samples.

Results

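The gene segments of the T cell receptor beta chain (Trb) were followed across 4 single-cell libraries of mouse thymocytes. The members are the genes whose symbols begin with Trbv, Trbd, Trbj or Trbc: 53 of the 32285 genes counted. They comprise 35 variable (V) segments, 13 of them annotated as pseudogenes, 2 diversity (D) segments, 14 joining (J) segments in 2 clusters of 7 and 2 constant (C) genes. The 4 libraries are PD-1 knockout-labelled CD25+, wild-type (WT) CD25+, PD-1 knockout-labelled CD25- and WT CD25- cells, with 1 library per group. All came from C57BL/6J mice aged 3 weeks, the thymi of 4 animals were pooled, cells bearing CD8 were depleted, and the sort took CD4+ HSA+ CD73- cells that were either CD25+ or CD25-. HSA is an antigen of immature thymocytes and CD25 is the alpha chain of the interleukin-2 receptor, carried by regulatory T cells (Tregs), their precursors and early thymocytes. The stain list names CD74 where the gate names CD73. With 1 library per group, a difference between knockout-labelled and WT cells is one between libraries and has no replicate check.

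A T cell builds its beta chain by joining one D to one J segment and then one V segment to that DJ unit. The joining is done by the RAG recombinase and the end-joining enzymes, and Dntt adds bases at the joints. It takes place in thymocytes that carry neither CD4 nor CD8. A first productive chain pairs there with the surrogate alpha chain encoded by Ptcra. Signalling through that pre-receptor lets the cell divide and ends further joining at this locus. The V segment carries a promoter of its own and forms part of the surface that binds antigen, the J segment closes the variable domain, and the C gene supplies the membrane anchor. Joining deletes the DNA between the chosen V segment and the DJ unit, while V segments lying 5′ of the chosen one stay on the chromosome. Trbv31, which lies on the other side of the C genes in the opposite orientation, joins by inversion.

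The segments are printed here because their length and likeness bear on what a short read can assign. In the GENCODE vM21 transcripts (GRCm38, the mm10 assembly, plus strand of chromosome 6), Trbd1 has 12 bases and Trbd2 has 14 bases. Of the 14 J segments, 7 hold the motif TTTGGNNNNGGN and 4 hold TTCGGNNNNGGN, read on the given strand only, and none holds TGGGGNNNNGGN. These letters encode the Phe-Gly-X-Gly core of the J region, and the capitals in the J lines mark them. Shown are both D segments, the J segment with most unique molecular identifiers (UMIs) in each cluster, and the 3 J segments that lack the motif letters.
Trbd1: gggacagggggc
Trbd2: gggactgggggggc
Trbj1-3: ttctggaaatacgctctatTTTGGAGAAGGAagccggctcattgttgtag
Trbj2-4: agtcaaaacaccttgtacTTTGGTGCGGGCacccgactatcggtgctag
Trbj1-6: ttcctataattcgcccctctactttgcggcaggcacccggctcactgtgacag
Trbj1-7: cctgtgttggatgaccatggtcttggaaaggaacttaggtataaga
Trbj2-6: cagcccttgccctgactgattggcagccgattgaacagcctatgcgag
The 11 J segments with the motif held 59 to 257 UMIs over the 4 libraries. Without it, Trbj1-6 held 194 UMIs, Trbj1-7 held 1 and the pseudogene Trbj2-6 held 9.

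Trbv13-2, the V segment with most UMIs, has 2 close relatives, and their last 60 bases are shown with the positions at which the 3 differ in capitals.
Trbv13-1: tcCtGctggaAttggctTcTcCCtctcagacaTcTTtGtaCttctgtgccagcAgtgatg
Trbv13-2: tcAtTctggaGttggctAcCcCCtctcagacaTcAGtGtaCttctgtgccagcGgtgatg
Trbv13-3: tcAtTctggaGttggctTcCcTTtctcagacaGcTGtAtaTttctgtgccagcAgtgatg
Over their aligned transcripts Trbv13-1 and Trbv13-2 were 88.7% identical, and Trbv13-2 and Trbv13-3 were 90.6% identical. No stretch of 90 bases was shared between any of the 3. Trbc1 and Trbc2, by contrast, were 87.3% identical, and 31.3% of the 90-base stretches of Trbc1 also occurred in Trbc2. The split of reads between the C genes is therefore uncertain.

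The members span 667.223 kb of chromosome 6, positions 40891229 to 41558452. Trbv1 opens the array at 40891229 to 40891885, and Trbv13-2 lies at 41121396 to 41121832. The last V segment before the D segments, Trbv30, ends 251.211 kb 5′ of Trbd1. The block of D, J and C genes takes 15.151 kb, with Trbc1 at 41538218 to 41539881 and Trbc2 at 41546730 to 41548352. Trbv31 follows at 41557691 to 41558452 on the minus strand.

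After filtering, the libraries held 9236 knockout-labelled CD25+, 7649 WT CD25+, 1716 knockout-labelled CD25- and 2985 WT CD25- cells, with 68989300, 54064164, 11159298 and 13580881 UMIs and medians of 5961.5, 5808, 6299 and 4497 UMIs per cell. Any pair of libraries shared 4 to 96 cell barcodes. Pdcd1, the gene of PD-1, was not lower in the libraries labelled as knockout: it stood at 18.9 and 27.2 CPM (a gene's UMIs scaled to a common total per library or class) in the knockout-labelled CD25+ and CD25- libraries, against 16.0 and 18.3 CPM in the WT CD25+ and CD25- libraries. The labels were kept, and every knockout-labelled group is named as such. The CD25+ libraries went against their CD4 gate: Cd4 stood at 21.1 and 47.1 CPM in the knockout-labelled and WT CD25+ libraries, against 319 and 353 CPM in the knockout-labelled and WT CD25- libraries, and Ptcra at 488 and 460 CPM against 0.358 and 1.03 CPM.

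Cells were therefore split by transcripts. Foxp3+ cells had a UMI of Foxp3, the lineage factor of Tregs. Ptcra+ Cd4- cells had a UMI of Ptcra and none of Cd4. Foxp3- CD4 cells had none of Foxp3 and at least 1 each of Cd4 and Trac, the constant gene of the alpha chain. In the order knockout-labelled CD25+, WT CD25+, knockout-labelled CD25-, WT CD25-, there were 331, 645, 59 and 51 Foxp3+ cells and 244, 425, 739 and 1079 Foxp3- CD4 cells. Ptcra+ Cd4- cells numbered 6586 in the knockout-labelled and 4791 in the WT CD25+ library, and 0 and 2 in the CD25- libraries, where the class was not used. Between 918 and 2075 cells per library were in no class, among them 58 and 34 cells of the knockout-labelled and WT CD25+ libraries that met both the Foxp3 and the Ptcra rule. They made up 22.5% and 23.4% of the knockout-labelled and WT CD25+ libraries, and 53.5% and 62.1% of the CD25- libraries. In the knockout-labelled and WT CD25- libraries the unclassed cells had medians of 5243.5 and 2327 UMIs, against 7390 and 6041 in Foxp3- CD4 cells. In the Ptcra+ class, the 8 markers of pre-receptor-stage thymocytes other than Ptcra, which defined the class, summed to 2642 CPM (knockout-labelled) and 3052 CPM (WT), against 243 and 163 CPM in Foxp3- CD4 cells of the same libraries. Markers of gamma-delta T cells, whose receptor uses no Trb segment, stood at 628 and 1205 CPM in the Ptcra+ class against 37.5 and 23.2 CPM, with all 6 of the list detected. B cell markers stood at 82.3 and 87.9 CPM against 6.9 and 2.5 CPM. Their part in the Trb levels was not tested.

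Over the 4 libraries Trb genes held 321742 UMIs, 0.218% of the total. The C genes took 180984 of these, with 153297 on Trbc2 and 27687 on Trbc1. The V segments took 139039, the first J cluster 1081 and the second J cluster 638 UMIs. Of the 53 members, 34 reached 100 UMIs and 8 had none: both D segments and 6 V pseudogenes. Trbv13-2 led the V segments with 24777 UMIs, ahead of Trbv3 (11885), Trbv1 (10852), Trbv19 (9753), Trbv15 (9117), Trbv31 (8694), Trbv16 (8238) and Trbv13-1 (8063). Among the 13 V pseudogenes Trbv24 held 1447 of 1578 UMIs.

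V transcripts were sparse in Ptcra+ Cd4- cells, while C transcripts were at about the level of CD4 cells. Summed V segments stood at 336 CPM in knockout-labelled Ptcra+ cells (95% counting interval 331 to 341) and at 495 CPM in WT Ptcra+ cells (488 to 502). In Foxp3- CD4 cells they stood at 1454 CPM (1402 to 1508) and 2088 CPM (2038 to 2138) in the knockout-labelled and WT CD25+ libraries, and at 2247 and 2477 CPM in the knockout-labelled and WT CD25- libraries. The ratio of Ptcra+ to Foxp3- CD4 cells was thus 0.231 in the knockout-labelled and 0.237 in the WT library, and 0.169 and 0.160 without Trbv13-2. The summed C genes stood at 1128 and 1247 CPM in knockout-labelled and WT Ptcra+ cells, against 1040 and 1218 CPM in the Foxp3- CD4 cells beside them. Their ratio was 1.08 (1.04 to 1.13) in the knockout-labelled and 1.02 (0.990 to 1.06) in the WT library. Averaged with each cell weighted equally, the sign of the C difference turned to -0.30 and -0.29 on the log2 scale. There were 0.298 and 0.397 V UMIs per C UMI in knockout-labelled and WT Ptcra+ cells, against 1.40 and 1.71 in the Foxp3- CD4 cells of those libraries. Foxp3+ cells had 2.00, 1.99, 2.01 and 1.81 V UMIs per C UMI in knockout-labelled CD25+, WT CD25+, knockout-labelled CD25- and WT CD25- libraries, all above both Ptcra+ values.

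**Figure D1:**
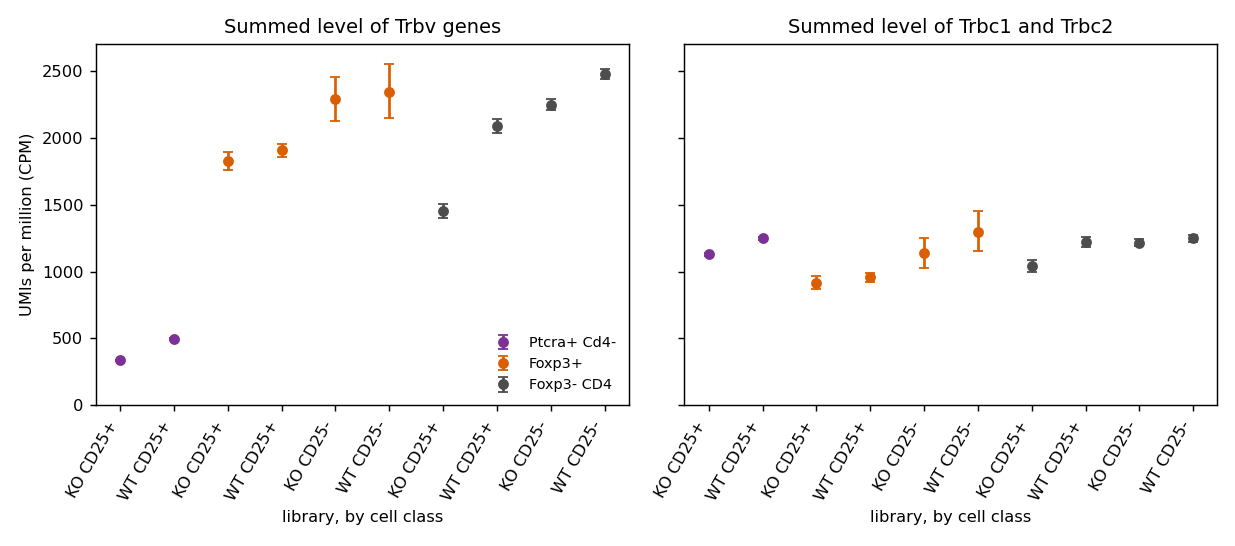
Summed level of the V segments and of the C genes in CPM (vertical axes) in each cell class and library, with 95% counting intervals. V segments stand at 336 and 495 CPM in knockout-labelled and WT Ptcra+ Cd4- cells and at 1454 CPM or more in every other class, while C genes stand between 915 and 1298 CPM throughout.

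J transcripts were more frequent relative to V in Ptcra+ cells. Ptcra+ cells held 612 (knockout-labelled) and 471 (WT) J UMIs, or 3.75 and 2.74 per 100 V UMIs, against 0.611 and 0.300 per 100 in the Foxp3- CD4 cells of those libraries. The J count per V UMI was 6.14 times (3.85 to 10.4) and 9.12 times (5.84 to 15.1) that of Foxp3- CD4 cells. As a level, J segments were 1.42 times (0.889 to 2.41) and 2.16 times (1.38 to 3.57) the Foxp3- CD4 level, so only the WT interval lay above 1. These ratios rest on 18 and 20 J UMIs in the Foxp3- CD4 cells. A J UMI was seen in 7.52% and 7.49% of Ptcra+ cells and in 6.56% and 4.47% of Foxp3- CD4 cells. The first J cluster, which lies between Trbd1 and Trbc1, gave 61.9% and 63.3% of J UMIs in knockout-labelled and WT Ptcra+ cells, against 72.2% and 50% in the Foxp3- CD4 cells. V pseudogenes gave 2.86% and 2.40% of V UMIs in Ptcra+ cells, against 0.543% and 0.285% in Foxp3- CD4 cells.

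Segment by segment, 24 Trb genes had enough counts to be tested between classes, namely 22 V segments and both C genes, and no J segment did. In edgeR's quasi-likelihood test on counts summed per library and class, 18 of the 24 were lower in Ptcra+ than in Foxp3- CD4 cells and none was higher at a Benjamini-Hochberg adjusted p under 0.05. Over all 11250 genes tested 23.5% were lower and 21.6% higher, with a median log2 change of -0.01, against a median of -2.32 over the 24. DESeq2 called 16 lower and none higher, and no Trb gene had an unadjusted edgeR p under 0.05 in the higher direction. The Ptcra+ class came from the CD25+ libraries alone, and the p-values measure how the class difference varies among libraries that also differ in gate and genotype label.

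The deepest falls were in Trbv26, Trbv3, Trbv31, Trbv2 and Trbv1, which include both ends of the V array. Trbv26 stood at 3.48 and 5.76 CPM in knockout-labelled and WT Ptcra+ cells, against 82.5, 59.9, 44.4 and 64.2 CPM in Foxp3- CD4 cells of the knockout-labelled CD25+, WT CD25+, knockout-labelled CD25- and WT CD25- libraries. Trbv3 stood at 16.8 and 21.0 CPM against 240, 281, 232 and 256 CPM in the same order. Trbv31 stood at 9.39 and 14.0 CPM against 123, 182, 205 and 230 CPM. In all 3 the Ptcra+ values lay far below every Foxp3- CD4 value. The log2 changes in the edgeR fit were -4.09 for Trbv26 (SE 0.34, adjusted p = 4.2e-07), -3.93 for Trbv3 (SE 0.29, adjusted p = 1.6e-07), -3.92 for Trbv31 (SE 0.24, adjusted p = 2.9e-08), -3.73 for Trbv2 (SE 0.20, adjusted p = 9.1e-09) and -3.33 for Trbv1 (SE 0.30, adjusted p = 8.7e-07).

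The shallowest called fall was Trbv12-2, which lies 2.032 kb from Trbv13-2. It stood at 26.5 and 33.2 CPM in knockout-labelled and WT Ptcra+ cells, against 42.5, 52.1, 87.6 and 70.9 CPM in Foxp3- CD4 cells (log2 change -0.82, SE 0.23, edgeR adjusted p = 0.0109). This call was lost when the WT CD25+ library was left out, at a log2 change of -0.73. The other shallow falls by the same test were Trbv12-1 (-1.84), Trbv29 (-1.87), Trbv30 (-1.99) and Trbv14 (-2.0). The call on Trbv30 was lost without the knockout-labelled CD25+, the WT CD25+ or the WT CD25- library. Over 21 V segments other than Trbv31, the Spearman correlation of log2 change with distance to Trbd1 was -0.35 and with mean level -0.51, given as a description without a test, since the segments share cells and libraries.

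The 6 uncalled members were Trbv13-2, Trbv17, Trbv23, the pseudogene Trbv24 and both C genes. Trbv13-2 stood at 111 and 186 CPM in knockout-labelled and WT Ptcra+ cells, against 120, 153, 225 and 228 CPM in Foxp3- CD4 cells, so the groups overlapped (log2 change -0.13, SE 0.19, edgeR adjusted p = 0.614). Trbc2 differed by -0.02 on the log2 scale (SE 0.12, edgeR adjusted p = 0.898) and Trbc1 by 0.18 (SE 0.14, adjusted p = 0.327). Trbv17 differed by -0.73 (SE 0.40, edgeR adjusted p = 0.152) and Trbv23 by -0.70 (SE 0.45, adjusted p = 0.222). Trbv24 differed by 0.54 (SE 0.37, edgeR adjusted p = 0.263).

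**Figure D2:**
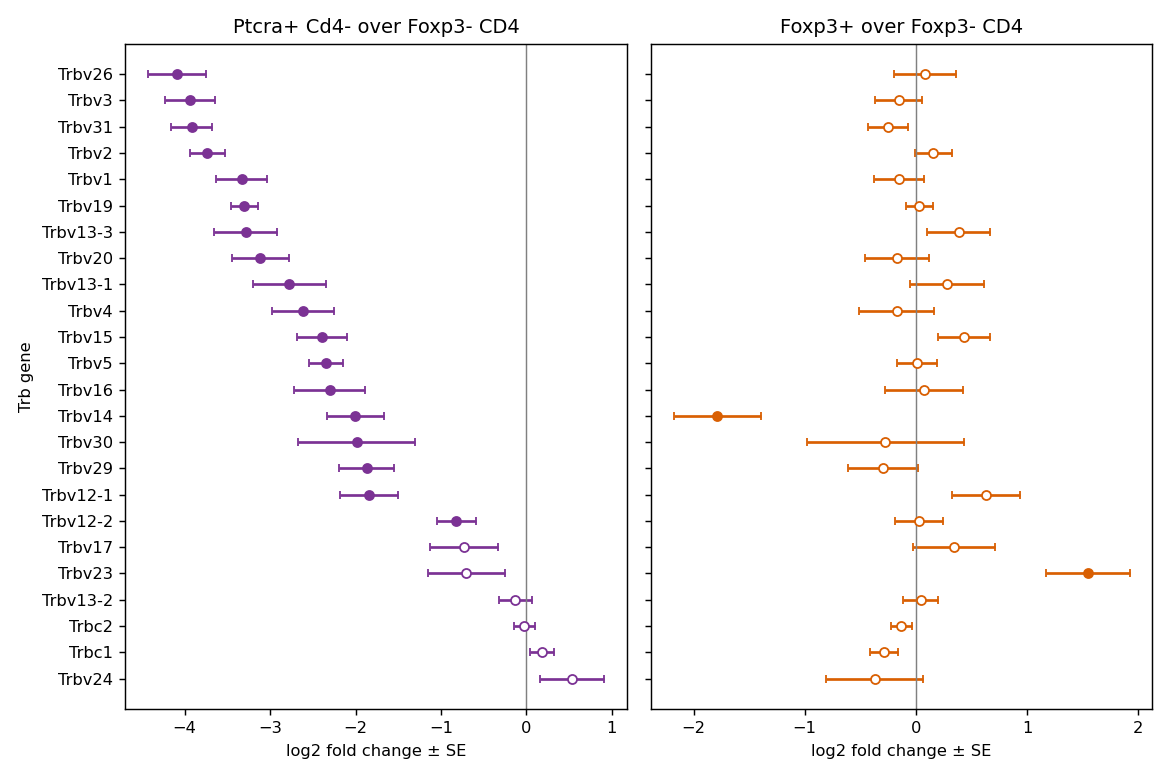
Log2 fold change with its standard error (horizontal axis) of each of the 24 tested Trb genes, for Ptcra+ Cd4- and for Foxp3+ cells, each against Foxp3- CD4 cells; closed symbols mark an edgeR adjusted p under 0.05. Trbv26 at -4.09 and Trbv13-2 at -0.13 stand at opposite ends of the V segments other than pseudogenes in the Ptcra+ contrast, and most Foxp3+ values lie near 0.

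Trbv13-2 held 33.0% (5377 UMIs) and 37.5% (6440 UMIs) of V UMIs in knockout-labelled and WT Ptcra+ cells. In Foxp3- CD4 cells it held 8.22%, 7.35%, 10.0% and 9.19% in the knockout-labelled CD25+, WT CD25+, knockout-labelled CD25- and WT CD25- libraries. The counts per cell were low where the share was high. Between 1 and 4 UMIs of Trbv13-2 were found in 37.8% and 47.7% of knockout-labelled and WT Ptcra+ cells and 5 or more in 2.49% and 5.99%. In Foxp3- CD4 cells 19.3%, 18.6%, 26.8% and 21.1% had 1 to 4 UMIs and 8.61%, 7.29%, 10.6% and 9.27% had 5 or more. In Ptcra+ cells low counts were the more frequent for other segments too: Trbv12-2 had 1 to 4 UMIs in 11.6% and 13.9% of them and 5 or more in 0.273% and 0.313%. Trbv31 had 1 to 4 UMIs in 1.58% and 2.38% of Ptcra+ cells and 5 or more in 0.364% and 0.459%, against 5 or more in 7.38% and 8.24% of Foxp3- CD4 cells of the same libraries. Among Ptcra+ cells with any V UMI, Trbv13-2 was the only V segment seen in 34.4% (knockout-labelled) and 33.6% (WT), against 5.06% and 5.05% in Foxp3- CD4 cells of the same libraries. The level of free RNA could not be measured, since only 4 cells had at least 10 UMIs of myeloid markers and no Cd3 gene, and 0 of the 4 had a Trb UMI.

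**Figure D3:**
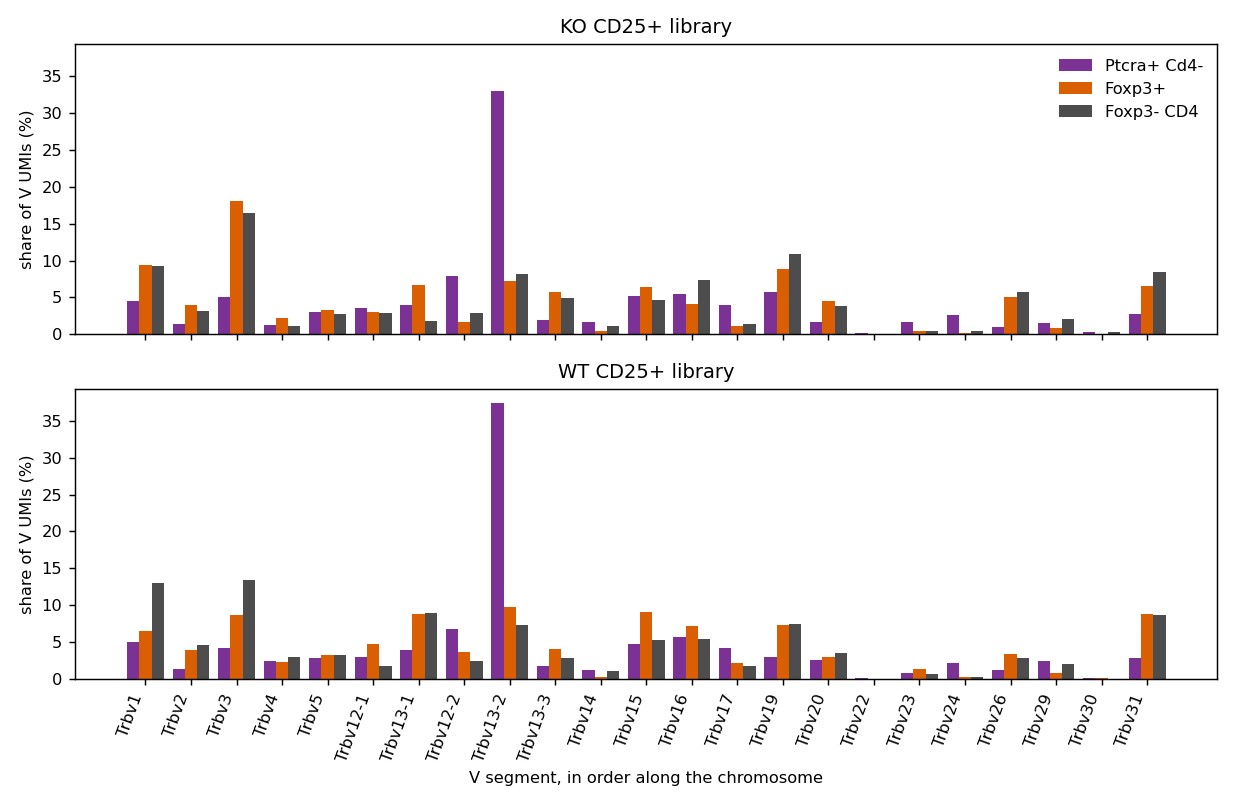
Share of V UMIs in percent (vertical axis) taken by each V segment (horizontal axis, in chromosome order) in the 3 cell classes of the knockout-labelled CD25+ library (upper panel) and the WT CD25+ library (lower panel). Trbv13-2 takes 33.0% and 37.5% in Ptcra+ Cd4- cells and 8.22% and 7.35% in Foxp3- CD4 cells.

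A V transcript was found in most CD4 cells and in fewer Ptcra+ cells. It was seen in 62.7% of knockout-labelled and 75.0% of WT Ptcra+ cells, against 97.1% and 97.9% of the Foxp3- CD4 cells beside them. After each cell was thinned to 1500 UMIs the shares were 28.9% and 40.2% against 79.7% and 85.8%. A C UMI without a V UMI was found in 29.2% and 19.7% of Ptcra+ cells, against 2.05% and 1.18% of Foxp3- CD4 cells. Cells with a V UMI had a median of 2 V UMIs in both Ptcra+ classes, against 9 and 13 in Foxp3- CD4 cells of those libraries. A leading V segment, defined as one with at least 3 UMIs and at least 2 times the next, could be named in 15.3% and 24.1% of Ptcra+ cells, against 79.5% and 86.6% of Foxp3- CD4 cells. UMIs of 2 or more V segments were present in 37.2% and 44.5% of V-bearing Ptcra+ cells, in 46.0% and 47.8% of V-bearing Foxp3- CD4 cells of the CD25+ libraries, and in 53.7% and 52.1% of those of the knockout-labelled and WT CD25- libraries.

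Which further V transcript a cell held varied with where its leading segment lies in the array. Trbv13-2 was found more often in cells led by a V segment 3′ of it than in cells led by one 5′ of it. This split was chosen after its values had been seen. In Foxp3- CD4 cells of the knockout-labelled CD25- library, 125 of 246 cells (50.8%) led by a 3′ segment held a Trbv13-2 UMI, against 33 of 265 (12.5%) led by a 5′ segment. In the WT CD25- library the counts were 157 of 348 (45.1%) against 33 of 403 (8.19%). In the CD25+ libraries they were 30 of 84 (35.7%) against 4 of 73 (5.48%) for knockout-labelled cells and 46 of 120 (38.3%) against 13 of 188 (6.91%) for WT cells. The difference was 30.2 percentage points (18.0 to 41.4) in knockout-labelled CD25+, 31.4 (22 to 40.8) in WT CD25+, 38.4 (30.7 to 45.4) in knockout-labelled CD25- and 36.9 (30.9 to 42.7) in WT CD25- cells. All 4 libraries showed it in the same direction, and none of the Newcombe intervals reached 0. These intervals count each cell once and hold no spread between animals. Without the cells led by Trbv13-3, the closest relative in sequence, the differences were 27.0, 26.7, 35.6 and 34.7 points in the same order of libraries.

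The same order held in the other classes. In Foxp3+ cells a Trbv13-2 UMI was found in 32.0% (knockout-labelled CD25+) and 36.9% (WT CD25+) of cells led by a 3′ segment, against 12.6% and 4.95% led by a 5′ segment. In Ptcra+ cells the shares were 59.8% and 69.6% against 28.7% and 40.5%, a difference of 31.1 and 29.1 points on a higher base. Thinned to 1500 UMIs per cell, the 4 libraries of Foxp3- CD4 cells kept the direction, at 8.33%, 13.3%, 17.1% and 16.4% for 3′ leads against 0%, 1.60%, 2.27% and 2.74% for 5′ leads. Cells led by Trbv13-2 itself are on neither side, and cells led by Trbv31, which lies apart, held a Trbv13-2 UMI in 17.6%, 12.1%, 20% and 9.59% of Foxp3- CD4 cells. Those values lay nearer to the 5′ than to the 3′ leads in all 4 libraries, and rest on 17, 33, 55 and 73 cells.

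Among CD25- Foxp3- CD4 cells, single leading segments followed the split with an exception at the far end of the array. In knockout-labelled CD25- Foxp3- CD4 cells, 7 leading segments 5′ of Trbv13-2 ranged from 10.0% to 15.2% of cells with a Trbv13-2 UMI, around a median of 12.5%. The 8 leading segments 3′ of it ranged from 6.25% to 72.7%, around a median of 54.2%. In WT CD25- cells 9 segments 3′ ranged from 13.8% to 69.2% around 52.5%, against 4.21% to 17.4% around 9.52% for 8 segments 5′. Trbv13-3, the next V segment 3′ of Trbv13-2 that is not annotated as a pseudogene, led 42 knockout-labelled CD25- cells, of which 64.3% held a Trbv13-2 UMI, and 66 WT CD25- cells, of which 54.5% did. The low 3′ values were those of Trbv26 and Trbv29, 2 segments near the 3′ end of the array: 6.25% and 9.09% of knockout-labelled and 13.8% and 17.4% of WT CD25- cells led by Trbv26 and Trbv29 held a Trbv13-2 UMI. They rest on 16, 11, 29 and 23 cells. The exception did not hold in every class. Cells led by Trbv29 reached 69.2% and 83.3% in knockout-labelled and WT Ptcra+ cells, on 13 and 12 cells. Trbv26 was the lowest 3′ lead in knockout-labelled and WT CD25+ Foxp3- CD4 cells, at 25.0% and 15.4%. It was also the lowest in WT CD25+ Foxp3+ cells at 22.7%, but stood at 33.3% in knockout-labelled CD25+ Foxp3+ cells.

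**Figure D4:**
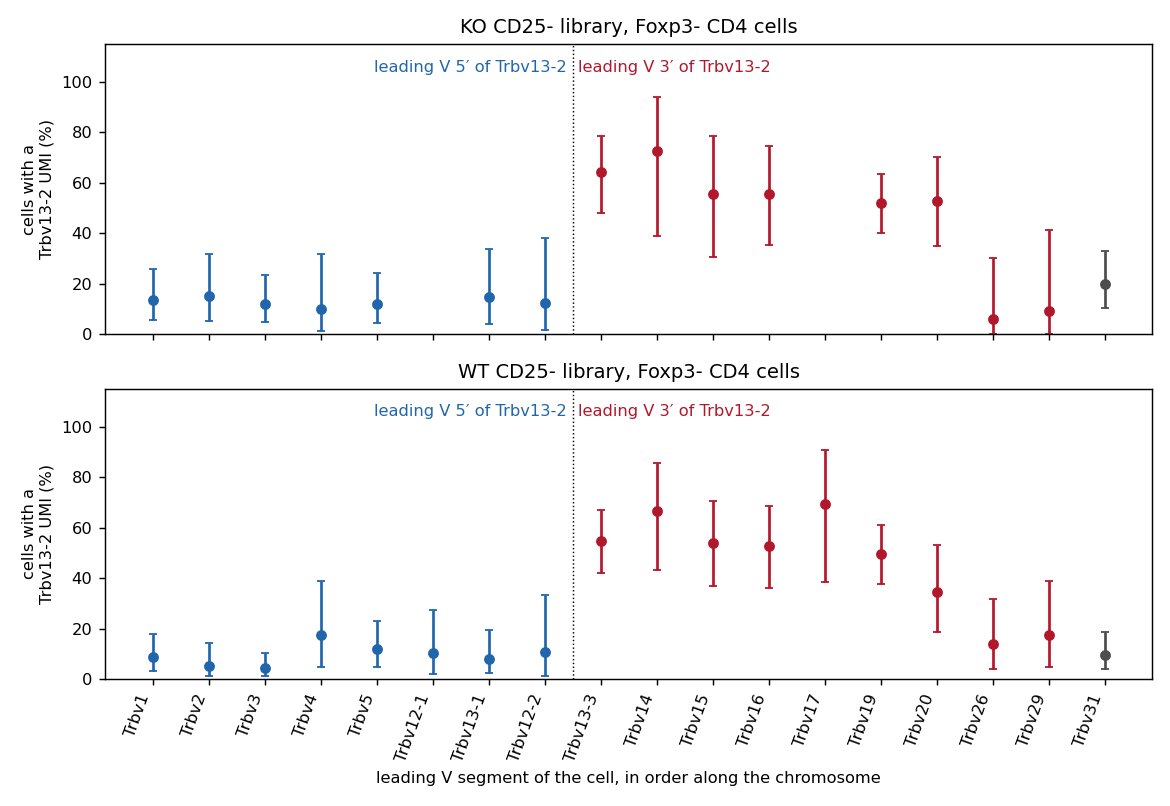
Share of Foxp3- CD4 cells with a Trbv13-2 UMI in percent (vertical axis) by the leading V segment of the cell in chromosome order (horizontal axis), for segments leading at least 10 cells, with 95% Clopper-Pearson intervals; the upper panel is the knockout-labelled CD25- and the lower panel the WT CD25- library. Segments 5′ of Trbv13-2 lie between 4.21% and 17.4%, while Trbv13-3 reaches 64.3% and 54.5% and Trbv26 and Trbv29 lie low.

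Trbv12-2 was split in the same way. Its UMIs were found in 22.4% (knockout-labelled) and 20.6% (WT) of CD25- Foxp3- CD4 cells led by a segment 3′ of it, against 6.02% and 5.47% of cells led by a segment 5′ of it. With each cell thinned to 1500 UMIs these shares were 5.99% and 5.29% against 2.02% and 1.83%. In CD25+ Foxp3- CD4 cells they were 13.5% against 4.35% (knockout-labelled), a difference whose interval reached 0 (-0.195 to 17.5 points), and 10.9% against 1.68% (WT, 4.07 to 15.4 points). In Ptcra+ cells the shares were 25.3% and 25.1% against 8.17% and 11.8%. Not every V segment was more frequent with a 3′ lead. Of the V segments with at least 10 positive cells and 50 cells on each side, 5 of 8 in knockout-labelled and 10 of 15 in WT CD25- Foxp3- CD4 cells were found more often with a 3′ lead, as were 6 of 11 and 7 of 12 in knockout-labelled and WT Ptcra+ cells.

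Pairs of V segments found in one cell were set against the product of their shares, and close neighbours lay on both sides of it. Trbv12-2 and Trbv13-2 were found together in 93 knockout-labelled and 90 WT CD25- Foxp3- CD4 cells, where the product of their shares gives 49.7 and 44.7, ratios of 1.87 and 2.01. In knockout-labelled and WT Ptcra+ cells they were together in 483 and 507 cells, where the product gives 316 and 367, ratios of 1.53 and 1.38. Trbv13-2 and Trbv13-3, 8.315 kb apart, were also above the product, at ratios of 1.73 and 1.53 in knockout-labelled and WT Ptcra+ cells and 1.79 and 1.85 in CD25- Foxp3- CD4 cells. Trbv13-1 and Trbv13-2, which lie 4.928 kb apart, were below it at 0.639 and 0.758 in Ptcra+ cells, and were found together in 9 knockout-labelled and 12 WT CD25- Foxp3- CD4 cells, ratios of 0.536 and 0.50. Over the pairs whose product gives at least 10 cells, the median ratio was 1.10 and 1.05 in knockout-labelled and WT Ptcra+ cells (35 and 38 pairs), against 0.671 and 0.574 in knockout-labelled and WT CD25- Foxp3- CD4 cells (26 and 36 pairs). Most pairs were thus rarer than the product in CD4 cells, and about as common as it in Ptcra+ cells. These ratios are descriptions of cells that differ in depth.

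Few single Trb genes differed between Foxp3+ and Foxp3- CD4 cells. In the CD25+ libraries the Foxp3- CD4 class also held Treg markers. Ikzf2 stood at 681 and 538 CPM in its knockout-labelled and WT cells, against 554 and 822 CPM in Foxp3+ cells. Tnfrsf4 stood at 453 and 360 CPM against 896 and 739 CPM. All other Treg markers listed were lower in Foxp3- CD4 than in Foxp3+ cells of both libraries, with Ctla4 at 26.7 and 34.5 CPM against 301 and 323 CPM. Summed V stood at 1826, 1905, 2286 and 2344 CPM in Foxp3+ cells of the knockout-labelled CD25+, WT CD25+, knockout-labelled CD25- and WT CD25- libraries. The ratios to Foxp3- CD4 cells of the same library were 1.26 (1.19 to 1.32), 0.912 (0.881 to 0.945), 1.02 (0.945 to 1.09) and 0.946 (0.866 to 1.03), on both sides of 1. For the summed C genes the ratios were 0.880 (0.823 to 0.941), 0.785 (0.748 to 0.824), 0.934 (0.841 to 1.03) and 1.04 (0.923 to 1.17). Both CD25+ intervals for C lay below 1. Of the 24 tested Trb genes, 1 was lower and 1 higher by edgeR's quasi-likelihood test at an adjusted p under 0.05, where 10.7% and 8.76% of all 11250 genes were lower and higher. DESeq2 also called 1 in each direction, and 3 of the 24 had an unadjusted p under 0.05. Trbv14 fell by 1.79 on the log2 scale (SE 0.39, adjusted p = 0.00697). It held 15, 19, 0 and 0 UMIs in Foxp3+ cells, or 9.42 and 6.25 CPM in the CD25+ libraries, against 16.8, 21.6, 33.5 and 46.0 CPM in Foxp3- CD4 cells. No Foxp3+ level in CPM reached a Foxp3- CD4 level. By cells, Trbv14 led 3 of 247 (1.21%), 1 of 493 (0.203%), 0 of 42 and 0 of 29 Foxp3+ cells with a leading V, against 2 of 194 (1.03%), 3 of 368 (0.815%), 11 of 637 (1.73%) and 21 of 912 (2.30%) Foxp3- CD4 cells of the same libraries, so that the knockout-labelled CD25+ library went the other way.

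Trbv23 rose by 1.55 on the log2 scale in Foxp3+ cells (SE 0.38, edgeR adjusted p = 0.0125). It stood at 8.79, 25.0, 131 and 57.6 CPM in Foxp3+ cells, against 5.93, 14.7, 21.3 and 17.7 CPM in Foxp3- CD4 cells, higher within each of the 4 libraries. In the CD25- libraries the Foxp3+ level rested on 2 knockout-labelled cells with 45 UMIs and 1 WT cell with 13 UMIs. Without the knockout-labelled CD25- library the log2 change was 1.03 and the call was lost (adjusted p = 0.104), and in the CD25+ libraries alone it was 0.79 (adjusted p = 0.293). Leaving out the knockout-labelled CD25+ or the WT CD25- library raised the number of called Trb genes from 2 to 5. Trbc1 differed by -0.29 (SE 0.13, adjusted p = 0.127) and Trbc2 by -0.13 (SE 0.09, adjusted p = 0.356). Trbv13-2 differed by 0.04 (SE 0.16, adjusted p = 0.785). Trbc1 gave 10.8%, 11.5%, 17.0% and 17.7% of C UMIs in Foxp3+ cells, against 15.8%, 12.9%, 17.1% and 14.3% in Foxp3- CD4 cells.

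Knockout-labelled and WT libraries were then compared for V usage, the share of V UMIs taken by a segment, within each class. A segment with at least 50 UMIs over both libraries was counted as apart at a ratio of 1.5 or more. Because a few cells can carry a segment's UMIs, the share of cells led by the segment stands beside it. In CD25- Foxp3- CD4 cells none of 22 V segments was higher and 4 were lower in the knockout-labelled library. As levels in CPM, none of 22 Trb genes was at least 1.5-fold higher and 2 were lower, where 2.51% and 0.949% of all genes were. The usage ratio was lowest for Trbv30 (0.415), Trbv12-1 (0.510) and Trbv29 (0.607). It was highest for Trbv20 (1.5 when rounded, just under the threshold), Trbv19 (1.40) and Trbv12-2 (1.36). Trbv12-1 led 9 knockout-labelled cells (1.41%) and 29 WT cells (3.18%), a difference of -1.77 points (-3.27 to -0.193). Trbv19 led 12.1% of knockout-labelled and 8.22% of WT cells, a difference of 3.86 points (0.835 to 7.06). No other segment that entered had a cell-based interval that excluded 0. The cell-based intervals, here and below, are not adjusted for the number of segments compared. Some of them can therefore exclude 0 by counting error alone.

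In CD25+ Foxp3- CD4 cells 3 of 20 V segments were higher and 3 lower in the knockout-labelled library. As levels, none of 21 Trb genes was at least 1.5-fold higher and 7 were lower, where 3.34% and 3.86% of all genes were. Trbv13-1 stood out. It took 1.80% of V UMIs in knockout-labelled and 8.92% in WT cells, a ratio of 0.202, and led 2 knockout-labelled cells (1.03%) and 27 WT cells (7.34%), a difference of -6.31 points (-9.52 to -2.83). Trbv4 and Trbv23 were the next lowest, at ratios of 0.379 and 0.577. Trbv26 was the highest at 1.98, with 5.67% of V UMIs in knockout-labelled and 2.87% in WT cells, followed by Trbv13-3 at 1.75 and Trbv12-1 at 1.56. Cell-based intervals reached 0 for all of these but Trbv13-1. Trbv2 led 4.12% of knockout-labelled and 9.51% of WT cells, an interval that also excluded 0 (-9.37 to -0.786 points), while its usage ratio of 0.682 was inside the threshold. These classes held 194 knockout-labelled and 368 WT cells with a leading V. Early-thymocyte markers were higher in the knockout-labelled class, at 33.1 CPM in knockout-labelled and 2.82 CPM in WT cells for Ptcra, 20.3 and 5.64 CPM for Rag1, and 150 and 71.5 CPM for summed markers of double-positive thymocytes. Their part in the levels and usage was not tested.

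In CD25+ Foxp3+ cells 1 of 19 V segments was higher and 5 were lower in the knockout-labelled library. As levels, 1 of 20 Trb genes was at least 1.5-fold higher and 5 were lower, where 3.74% and 3.65% of all genes were. Trbv3 took 18.0% of V UMIs in knockout-labelled and 8.70% in WT cells, a ratio of 2.07, and led 15.4% of knockout-labelled and 8.92% of WT cells, a difference of 6.46 points (1.58 to 12). Trbv20 followed at a ratio of 1.49 and Trbv26 at 1.47. The lowest were Trbv23 (0.367), Trbv12-2 (0.463) and Trbv17 (0.490), each with a cell-based interval that reached 0. Trbv12-1, at a ratio of 0.616, led 1.21% of knockout-labelled and 5.88% of WT cells (-7.23 to -1.78 points). The CD25- Foxp3+ cells had only 42 knockout-labelled and 29 WT cells with a leading V. There 11 of 12 segments were apart, no cell-based interval excluded 0, and 7 and 10 of 21 Trb genes passed 1.5-fold up and down in level, beside 17.1% and 20.7% of all genes. Trbv16 held 87 UMIs in knockout-labelled cells, from 4 cells led by it, and 0 in WT cells. Trbv13-3 had a ratio of 8.30 with 5 cells led by it in the knockout-labelled and 1 in the WT library, and Trbv17 held 1 UMI in knockout-labelled and 50 UMIs in WT cells.

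In Ptcra+ cells, the largest class, 3 of 23 V segments were higher and 2 lower in the knockout-labelled library. As levels, none of 9 Trb genes was at least 1.5-fold higher and 4 were lower, where 2.3% and 1.74% of all genes were. Trbv19 took 5.74% of V UMIs in knockout-labelled and 2.95% in WT cells, a ratio of 1.95, and led 4.57% and 2.85% of cells, a difference of 1.72 points (0.124 to 3.40). Trbv30 (2.63) and Trbv23 (2.02) had higher ratios and few cells. Trbv4 was the lowest at 0.508, with 1.21% of V UMIs in knockout-labelled and 2.39% in WT cells and a difference of -1.24 points in the cells it led (-2.39 to -0.122). Trbv29 (0.646) and Trbv20 (0.673) were next. Trbv13-2 led 48.1% of knockout-labelled and 56.1% of WT cells with a leading V, a difference of -7.94 points (-12.1 to -3.72). Its usage of 33.0% and 37.5% gave a ratio of 0.880, inside the threshold.

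**Figure D5:**
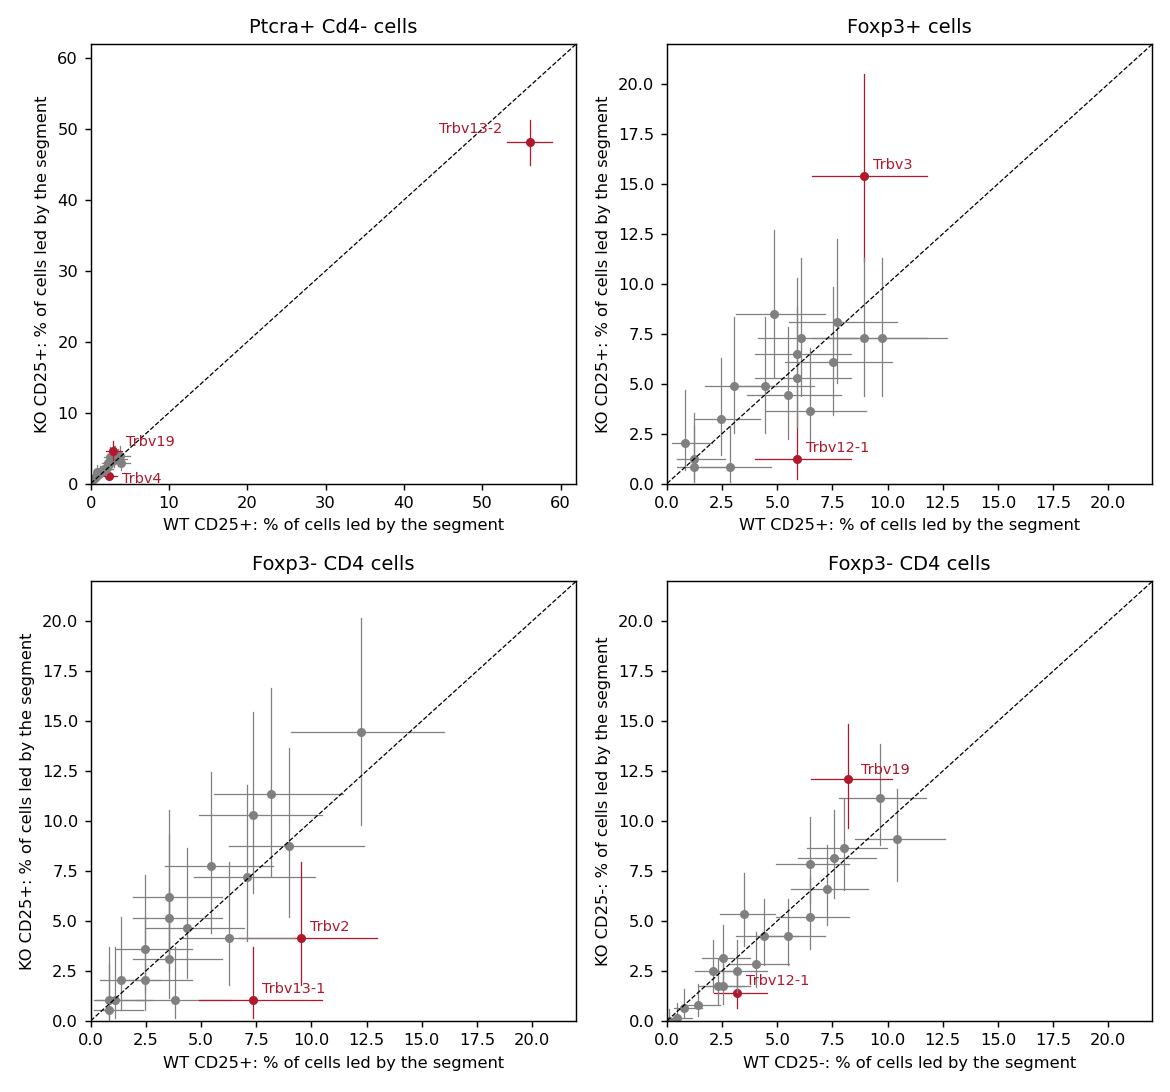
Share of cells led by each V segment in percent in the knockout-labelled library (vertical axis) against the WT library (horizontal axis), for CD25+ Ptcra+ Cd4-, CD25+ Foxp3+, CD25+ Foxp3- CD4 and CD25- Foxp3- CD4 cells, with 95% intervals; red marks segments whose difference excludes 0. The intervals are not adjusted for the number of segments. Most segments lie along the dashed line of equal shares. Off it lie Trbv13-1 at 1.03% and 7.34% among CD25+ Foxp3- CD4 cells and Trbv3 at 15.4% and 8.92% among Foxp3+ cells.

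Between the gates, Foxp3- CD4 cells of the CD25+ libraries had lower V levels than those of the CD25- libraries, at 1454 CPM in CD25+ and 2247 CPM in CD25- knockout-labelled cells and at 2088 CPM in CD25+ and 2477 CPM in CD25- WT cells. Summed markers of pre-receptor-stage thymocytes stood at 276 CPM in CD25+ and 94.2 CPM in CD25- knockout-labelled cells, with 9 and 4 of the 9 detected, and at 166 CPM in CD25+ and 96.4 CPM in CD25- WT cells, with 9 and 5 detected. The list includes Il2ra, the gene of CD25, by which the gates were sorted. It gave 138 and 90.6 CPM of the sums in knockout-labelled and WT CD25+ cells. Over all cells of the knockout-labelled and WT CD25- libraries Il2ra stood at 4.12 and 2.36 CPM. The sums are therefore not independent of the sort. Without Il2ra the CD25+ sum stayed above the CD25- sum in knockout-labelled cells but lay below it in WT cells. The part of these markers in the V levels was not tested. As levels, 1 of 22 Trb genes was at least 1.5-fold higher and 13 were lower in CD25+ than in CD25- knockout-labelled cells, where 13.4% and 11.9% of all genes were. In WT cells none of 21 was higher and 5 were lower, where 9.08% and 6.33% of all genes were. In usage, 4 of 21 segments were higher and 4 lower in CD25+ than in CD25- knockout-labelled cells. Trbv26 was the highest (2.87), led 6.19% of CD25+ and 2.51% of CD25- cells (0.647 to 8.09 points) and was followed by Trbv12-1 (2.13) and Trbv16 (1.65). Trbv3 also had a cell-based interval above 0, at 14.4% of CD25+ and 9.11% of CD25- cells. Trbv13-1 was the lowest (0.295), led 1.03% of CD25+ and 4.24% of CD25- cells (-5.21 to -0.252 points) and was followed by Trbv23 (0.430) and Trbv4 (0.461). In WT cells none of 22 segments was higher and 4 were lower in CD25+ cells. The lowest were Trbv30 (0.10), the pseudogene Trbv24 (0.348) and Trbv13-3 (0.506), and the highest Trbv1 (1.33), Trbv4 (1.31) and Trbv3 (1.30). Trbv13-3 led 3.53% of CD25+ and 7.24% of CD25- cells (-6.07 to -0.855 points). The 2 usage comparisons between gates and the 2 between genotype labels share libraries and are given side by side only.

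Genes that act on the locus or with its product were counted in the same edgeR fit, from lists chosen with earlier results of these data known. In Ptcra+ against Foxp3- CD4 cells, 9 of 14 tested recombination and end-joining genes rose and 1 fell, where 21.6% of all genes rose and 23.5% fell. Rag1, which cuts the DNA with Rag2, rose by 4.75 on the log2 scale, and Polm, a gap-filling polymerase, fell by 2.68. Of 14 factors that bind the enhancer, promoters or boundaries of the locus, 5 rose and 6 fell, from Smarca4 at 1.97 to Satb1 at -1.65. Of 10 genes of the receptor complex and its signalling, 5 rose and 4 fell. Themis, a signalling adaptor of thymocytes, rose by 1.37, and Zap70, the kinase recruited to the receptor, fell by 3.55. In Foxp3+ against Foxp3- CD4 cells the counts were 0 up and 3 down for recombination, 2 up and 3 down for locus factors and 0 up and 1 down for the receptor complex, where 8.76% of all genes were up and 10.7% down. Gata3 rose by 0.73, Runx3 fell by 0.78, Hmgb2 fell by 1.28 and Zap70 fell by 0.37. The highest recombination and receptor-complex values in that contrast, Dntt at 0.94 and Lck at 0.08, did not pass (adjusted p = 0.0792 and 0.662).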

How the data were processed

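Single-cell RNA libraries were made with the 10x Genomics 5′ kit v2, which reads transcripts from their 5′ end, per the labels' protocols. The authors deposited unnormalized, whole UMI counts of each gene in each barcode. Cell Ranger 6.2.1 and mm10 are named in the submitters' processing notes, and Cell Ranger 6.1.2 in the file headers. The annotation used for counting was not given in the sources used here. Positions and sequences came from GENCODE vM21.

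Barcodes with under 500 genes or at least 10% mitochondrial UMIs were left out. Scrublet scores in scanpy 1.11.5 served to remove 0.8% of barcodes per 1000 barcodes as doublets. Counts were summed per library and class and scaled to CPM. Levels have exact Poisson, shares exact Clopper-Pearson, differences Newcombe and ratios conditional binomial intervals at 95%, which cover counting error only. The UMIs of a cell are not independent, so shares of cells led by a segment are given beside shares of UMIs. Classes of at least 50 cells were fitted together with edgeR 4.0.16 (filterByExpr, TMM, library plus class), checked on simulated counts, with Benjamini-Hochberg adjustment over all 11250 genes. DESeq2 1.42.0 was an alternative. Levels compared between 2 libraries entered at 20 CPM in either library.

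The members, gene lists and cell classes were chosen with earlier results of these data known. Named genes are the C and D genes, Trbv1, Trbv31, the 8 V segments with most UMIs, the 5 highest and 5 lowest called Trb genes per class contrast, the 3 highest and 3 lowest usage ratios per comparison, the highest J of each cluster and the 2 extremes of each list. Genes named beyond it were chosen after their values were seen: Trbv12-2, Trbv17, Trbv24 and the uncalled members, V segments whose cell-based interval excluded 0, and the segments of the positional split.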

Additional observations from a re-analysis of the deposited data

Results flagged for a closer look

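For 4 V segments, the usage ratio of knockout-labelled to WT Foxp3- CD4 cells lay on opposite sides of 1 in the 2 gates, with the log2 ratios at least 1 apart. The values are log2 ratios of the share of V UMIs, knockout-labelled over WT. Trbv4 was at -1.40 in the CD25+ and 0.11 in the CD25- gate, a difference of -1.51. Trbv12-1 was at 0.64 in the CD25+ and -0.97 in the CD25- gate, a difference of 1.61. Trbv23 was at -0.79 and 0.40, a difference of -1.20, and Trbv26 at 0.98 and -0.39, a difference of 1.37. The interval of the ratio reached 1 for Trbv4 in the CD25- gate (0.925 to 1.25) and for Trbv23 in the CD25+ gate (0.279 to 1.11). By share of cells led, the interval of the difference reached 0 in both gates for Trbv4, Trbv23 and Trbv26, and in the CD25+ gate for Trbv12-1. Trbv23 led a smaller share of knockout-labelled than of WT cells in both gates, at 0.515% against 0.815% (CD25+) and 0.628% against 0.768% (CD25-). Other segments with at least 50 UMIs over both libraries were also on opposite sides with a smaller gap. Among them were Trbv13-3, at ratios of 1.75 in the CD25+ and 0.917 in the CD25- gate, and Trbv1, at 0.709 and 1.16. By cells, Trbv1 led 7.22% of knockout-labelled and 7.07% of WT cells in the CD25+ gate, and 8.16% and 7.57% in the CD25- gate. With 1 library per group these differences were not tested.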

How the results depend on the processing

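The count of Trb genes called between Ptcra+ and Foxp3- CD4 cells, 18 and all lower in the main run, stayed between 16 and 20 in every alternative run. For Foxp3+ against Foxp3- CD4 cells 2 were called, 1 lower and 1 higher. That count became 5 without a filter on low counts, with the stricter cell filter (1000 genes, 5% mitochondrial UMIs), with Foxp3 at 2 UMIs and in the CD25+ libraries alone. The run on the CD25+ libraries alone was added after seeing the data. With no library block the count was 1. Leaving out each library in turn gave 2 to 5. No Trb gene called in a class contrast changed sign under any alternative run, whereas uncalled ones near 0 did, among them Trbv13-2 and Trbc2 in the Ptcra+ contrast. Segments 1.5-fold apart in usage numbered 4 in CD25- Foxp3- CD4 cells and 2 at a minimum of 200 UMIs; 6 in CD25+ Foxp3- CD4 cells and 3 with Cd4 plus Trac summing to 1; 5 in Ptcra+ cells and 9 by leading V; 8 between the knockout-labelled gates and 4 with the summed Cd4 and Trac rule; 4 between the WT gates and 2 at a minimum of 200 UMIs. The log2 ratio of summed V, Ptcra+ over Foxp3- CD4, was -2.11 in knockout-labelled and -2.08 in WT cells; it became -2.47 and -2.33 with cells weighted equally, -1.99 and -1.95 with the summed rule, and -1.92 and -2.0 with doublets kept. That of summed C, 0.12 and 0.03, became -0.30 and -0.29 with cells weighted equally, 0.020 in knockout-labelled cells with the summed rule and -0.018 in WT cells with doublets kept. The share of V-bearing cells with 2 or more V segments, Ptcra+ minus Foxp3- CD4, was -3.36 points in WT cells and -13.3 when a segment counted from 2 UMIs. The difference in cells with a Trbv13-2 UMI by the side of the leading V, thinned to 1500 UMIs, was 7.54 and 10.1 points in knockout-labelled and WT Ptcra+ cells and 8.33, 11.7, 14.8 and 13.7 in Foxp3- CD4 cells of knockout-labelled CD25+, WT CD25+, knockout-labelled CD25- and WT CD25- libraries; in WT Ptcra+ cells it was 40.6 with a leading V of 5 UMIs and 5 times the next. These alternatives were added after seeing the data. The cause of these shifts was not tested, apart from thinning, which removes UMIs by construction.

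No paired analysis was possible because each group is 1 library and the replicate numbers carry no pairing; the library itself is the block in the class contrasts. Depth limits the CD25- Foxp3+ cells, which under the stricter cell filter (WT) and under Foxp3 at 2 UMIs (both libraries) fell below 50 cells and left the fit, and the J segments, which were too sparse to test.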
